A study of Mus musculus with 6 samples.

Results

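Trp53, the gene of the transcription factor p53, and 9 of its direct targets were followed in ribosome-bound RNA of the mouse corpus callosum, the main white matter bridge of the forebrain. The 10 genes (Trp53, Cdkn1a, Mdm2, Ccng1, Bax, Bbc3, Phlda3, Trp53inp1, Sesn1 and Eda2r) were chosen by symbol among the 39017 genes of the count table, and all 10 passed the filter on low counts that left 16569 genes for testing. All libraries came from C57BL/6 mice that carried both the RiboTag allele and Olig1-Cre. RiboTag adds an HA epitope to the ribosomal protein RPL22 wherever Cre has acted, here under the Olig1 promoter, and tagged ribosomes are then recovered with their RNA by an anti-HA antibody. In 3 libraries (replicates 30, 31 and 32) the mice had received a diet with 0.2% cuprizone, a copper-binding compound toxic to oligodendrocytes that causes demyelination. The other 3 libraries (replicates 24, 26 and 27) came from control mice, which carried the same alleles and had no cuprizone. The protocol describes females aged 8 to 10 weeks, cuprizone for 6 or 9 weeks and 3 weeks of recovery on control diet, and the labels do not say which of these stages the cuprizone libraries represent. Nothing in the labels states whether a library holds 1 mouse or several, so p-values measure the spread between these libraries.

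Total counts were 20028829, 22381307 and 19455245 in cuprizone replicates 30, 31 and 32, against 18549360 to 18771737 in the controls. The label of oligodendrocytes was checked against markers. Summed over 8 genes of myelinating oligodendrocytes, levels were 7756 to 14524 CPM (read counts per library size, with sizes scaled by the TMM method) in cuprizone and 58223 to 79768 CPM in control, and all 8 genes fell. Astrocyte markers were also abundant, at 15800 to 30300 CPM in cuprizone and 22579 to 25478 CPM in control, and neuronal markers reached 1789 to 3399 CPM in cuprizone and 1516 to 2445 CPM in control. RNA of genes that mark other cell types was therefore present in both groups. Replicate 32 differed from the other cuprizone libraries, with the lowest astrocyte sum and the highest microglial sum (1645 CPM, against 850 and 1006 CPM in replicates 30 and 31) and vascular sum (228 CPM, against 100.4 and 61.0 CPM). Its neuronal sum was also the highest (3399 CPM, against 2508 and 1789 CPM). In control the sums were 631 to 1053 CPM for microglia and 57.2 to 70.3 CPM for vascular cells. The log2 ratios of the group means of these 2 sets, cuprizone over control, were 0.59 and 0.98, the highest of the marker sets. No marker of either set passed the test. Their part in the rises below was not tested. In RNA of this kind, fewer cells of a type and less RNA per cell cannot be told apart. All 46 of these markers had counts in every library, as did the 6 markers of dividing cells.

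**Figure D1:**
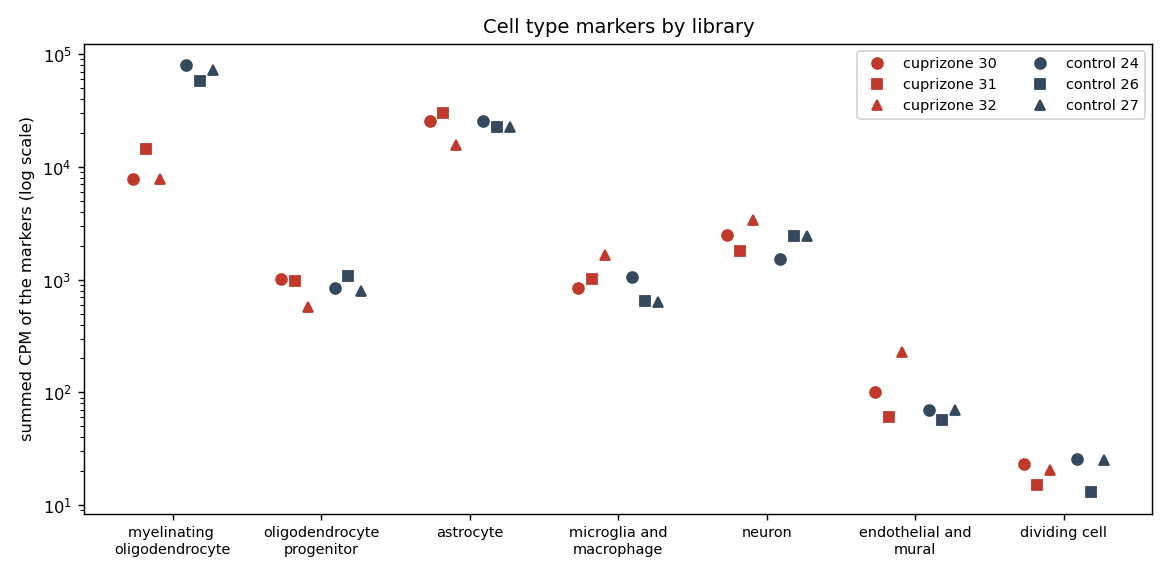
Summed CPM of the markers of each cell type (log axis) in the 3 cuprizone libraries (red) and the 3 control libraries (dark), with 1 symbol per replicate. Myelin markers are 7756 to 14524 CPM in cuprizone and 58223 to 79768 CPM in control, and cuprizone replicate 32 (red triangle) is lowest in astrocyte and highest in microglial, neuronal and vascular markers.

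p53 is kept low in resting cells because MDM2, itself the product of a p53 target, marks it for destruction. DNA damage, blocked ribosome production, oxidative stress and other insults stabilise the protein, which then binds DNA as a tetramer and switches on genes that halt the cell cycle, repair DNA, change metabolism or start apoptosis. Most of this control acts on the protein, so the level of Trp53 RNA does not report p53 activity. Cdkn1a, which encodes the cyclin-dependent kinase inhibitor p21, is the classic target, and it also answers to other factors. In the oligodendrocyte lineage p21 is known from studies of progenitors leaving the cell cycle and maturing.

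The DNA element that p53 recognises is a pair of 10-base elements in tandem, and it was searched for in the RefSeq promoter windows of GRCm38.p6, which run from 250 bases before a gene start to 50 after it. The p53 consensus element was searched by name on both strands (it reads alike on each), allowing mismatches everywhere except at its fixed C and G, and 9 of the 10 genes had a window. The sequences below are shown because they are the closest matches among the genes, and capitals mark the 20 bases of the pair without a spacer.

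Cdkn1a, chr17:29090928-29090947, plus strand: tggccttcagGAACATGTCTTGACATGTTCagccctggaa
Ccng1, chr11:40755462-40755481, minus strand: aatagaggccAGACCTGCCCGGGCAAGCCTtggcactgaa
Bbc3, chr7:16309486-16309505, plus strand: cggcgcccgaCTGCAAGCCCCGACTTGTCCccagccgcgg
Trp53, chr11:69580284-69580303, plus strand: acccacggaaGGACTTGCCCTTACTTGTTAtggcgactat
Sesn1, chr10:41887266-41887285, plus strand: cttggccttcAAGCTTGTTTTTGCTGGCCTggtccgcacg

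The pairs of Cdkn1a and Ccng1 had 1 mismatch to the consensus over 20 bases, and 0.067% of all 32817 windows held a pair that close. Those of Bbc3, Trp53 and Sesn1 had 3 mismatches, and 1.38% of all windows held a pair with at most 3. With a spacer of up to 13 bases allowed, the closest pair of Cdkn1a had 0 mismatches and a spacer of 12 bases, as close as in 0.0731% of windows. It reuses the left element of the pair shown. The closest spaced pair of Bax had 2 mismatches (4.09% of windows held one with at most 2), and that of Mdm2 had 4 (40.4% of windows held one with at most 4). Cdkn1a has 2 RefSeq starts 2790 bases apart, and the pair lies 32 to 51 bases before the upstream one, within these 250 bases (chr17:29090729-29090978, plus strand), in which capitals again mark the pair: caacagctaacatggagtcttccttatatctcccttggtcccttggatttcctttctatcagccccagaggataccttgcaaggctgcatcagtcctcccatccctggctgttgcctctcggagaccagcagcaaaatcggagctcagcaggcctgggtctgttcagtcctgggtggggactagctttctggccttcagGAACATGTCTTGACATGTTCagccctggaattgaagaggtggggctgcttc. A match describes the letters only, and no binding was measured here. Bases outside these windows, such as introns of Mdm2 or Sesn1, were not searched. A weak match therefore does not show that a gene lacks an element.

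Of the 10 genes 2 rose in cuprizone (Cdkn1a and Trp53), 1 fell (Phlda3) and 7 did not pass edgeR's quasi-likelihood test at a Benjamini-Hochberg adjusted p of 0.05. Among all genes tested 7.57% passed, of which 1.87% rose and 5.70% fell, again as shares of all genes. The 3 libraries of each group did not overlap for 4 of the 10 genes in the upward direction and for 2 in the downward direction, against 12.6% and 17.6% of all genes tested, or 30.2% in either direction. The median log2 fold change of the 10 genes was 0.29, beside 0.023 for all genes tested. The direction was thus mixed, with the rise of Cdkn1a far beyond that of any other of the 10 genes. Without cuprizone replicate 32, Ccng1 and Eda2r joined the genes that rose, making 4, and Phlda3 still fell, in a fit in which 2.77% of all genes rose and 5.75% fell. Replicate 32 was the lowest cuprizone library for Ccng1 and Eda2r, so leaving it out raised their cuprizone means by construction. These 2 calls are therefore no separate support for a rise. Leaving out cuprizone replicate 30 or control replicate 26 or 27 left Cdkn1a as the only riser and no gene that fell, and leaving out control replicate 24 also left none that fell. Calls over all genes were fewer in these fits too, with 91, 73, 65 and 157 genes higher and 480, 474, 495 and 519 lower without cuprizone replicate 30 and control replicates 26, 27 and 24, against 310 and 945 with all libraries.

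**Figure D2:**
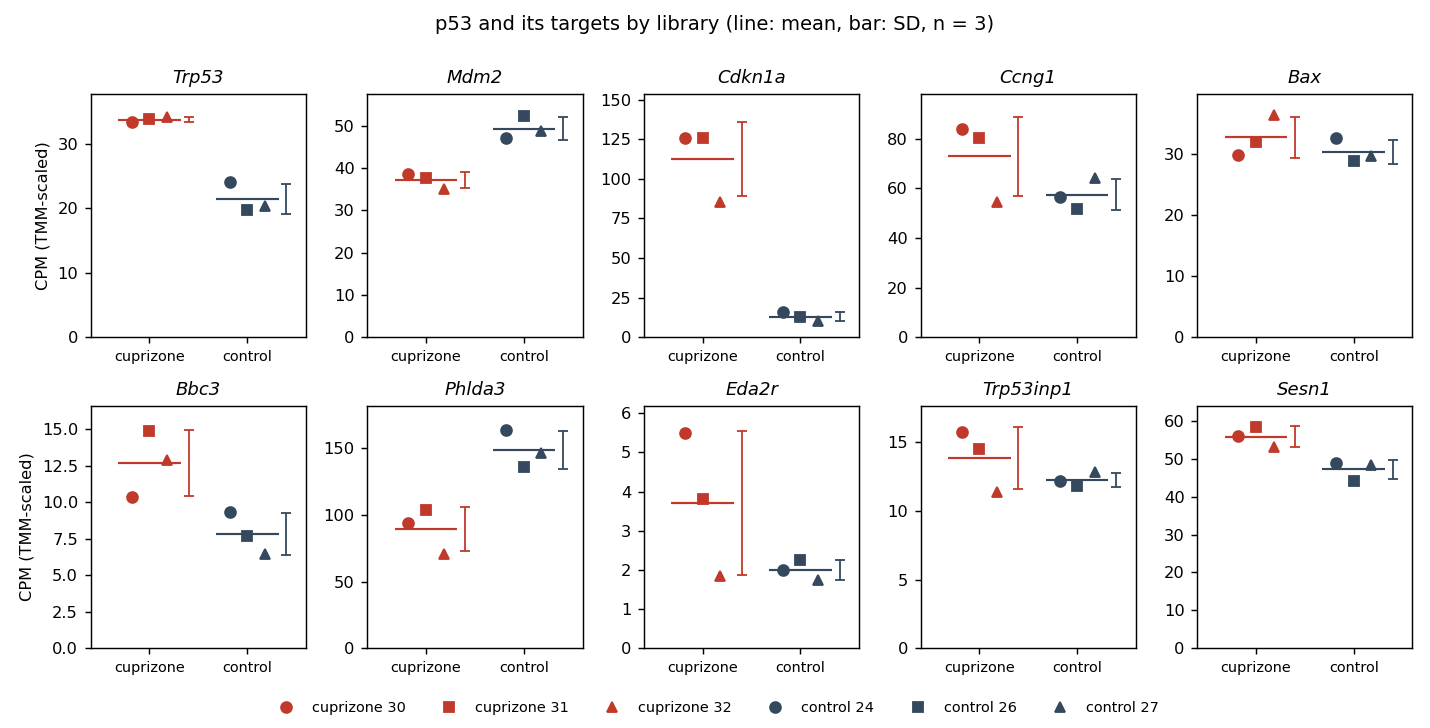
CPM of each of the 10 genes (vertical axes start at 0) in the 3 cuprizone libraries (red, left) and the 3 control libraries (dark, right), with 1 symbol per replicate, a line at the mean and a bar of 1 SD. Cdkn1a is at 85.2 to 126 CPM in cuprizone and 10.5 to 15.7 CPM in control, Mdm2 and Phlda3 are lower in every cuprizone library, and cuprizone replicate 32 (triangle) lies below the other cuprizone libraries for 7 of the 10 genes.

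Trp53 itself (ENSMUSG00000059552, GRCm38 chromosome 11, 69580359 to 69591873) was at 33.4, 33.8 and 34.1 CPM in cuprizone replicates 30, 31 and 32, against 24.1, 19.7 and 20.4 CPM in control replicates 24, 26 and 27. The cuprizone libraries were nearly equal and all lay above the controls. The mean was 33.8 ± 0.376 CPM in cuprizone and 21.4 ± 2.36 CPM in control (SD, n = 3 each), a log2 fold change of 0.66 ± 0.12 (SE) with an adjusted p of 0.0172 in edgeR. This call was lost without cuprizone replicate 30 (adjusted p = 0.0649) or control replicate 26 (0.0885) or 27 (0.105), while the log2 fold change stayed between 0.61 and 0.77 in all 13 alternatives. The relatives Trp63 and Trp73 were scarce, at 1.13 ± 0.130 and 2.27 ± 1.71 CPM in cuprizone and 1.26 ± 0.510 and 2.16 ± 1.61 CPM in control, and neither passed the test (adjusted p = 0.848 and 0.966).

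Mdm2, the ubiquitin ligase that removes p53 and is induced by it, did not follow Cdkn1a. Its level was 38.7, 37.7 and 35.1 CPM in cuprizone replicates 30, 31 and 32, against 47.0, 52.3 and 48.6 CPM in control replicates 24, 26 and 27. Every cuprizone library lay below every control. The log2 fold change was -0.41 ± 0.10 (95% interval -0.65 to -0.17), with an adjusted p of 0.0600 in edgeR, which missed the threshold, and of 0.0117 in DESeq2. Counts of Mdm2 over counts of Trp53 within a library, a ratio chosen after the values were seen, were 1.16, 1.11 and 1.03 in cuprizone and 1.95, 2.65 and 2.39 in control. This ratio does not depend on library scaling. Mdm4, a relative of Mdm2 that masks p53 without degrading it, was at 6.53 ± 0.995 CPM in cuprizone and 7.05 ± 1.37 CPM in control (adjusted p = 0.792, 95% interval of the log2 fold change -0.60 to 0.37).

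Cdkn1a (ENSMUSG00000023067, chromosome 17, 29090976 to 29100727) gave the largest change of the 10 genes. It was at 126, 126 and 85.2 CPM in cuprizone replicates 30, 31 and 32, against 15.7, 12.9 and 10.5 CPM in control replicates 24, 26 and 27. The lowest cuprizone library was thus several times above the highest control. The log2 fold change was 3.11 ± 0.22 (adjusted p = 0.00101 in edgeR), a linear fold of 8.62, and 31st of 16569 genes by p. It ran from 2.97 to 3.28 over the 13 alternatives, in each of which it passed. An unnamed transcript on the opposite strand shares 273 exonic bases with Cdkn1a in the GENCODE annotation. Whether counting used strand is not stated.

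Ccng1, which encodes cyclin G1, a target that recruits a phosphatase to MDM2, was at 83.9, 80.2 and 54.6 CPM in cuprizone replicates 30, 31 and 32, against 56.8, 51.6 and 64.2 CPM in control replicates 24, 26 and 27. Replicates 30 and 31 lay above all controls and replicate 32 among them. The log2 fold change of 0.34 ± 0.18 did not pass with all libraries (adjusted p = 0.311 in edgeR) and was 0.51 ± 0.12 without cuprizone replicate 32 (adjusted p = 0.0476).

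Among the targets that act in cell death, Bbc3 encodes PUMA and Bax the pore former of the mitochondrial outer membrane. Bbc3 was at 10.3, 14.8 and 12.9 CPM in cuprizone replicates 30, 31 and 32, against 9.31, 7.71 and 6.47 CPM in control replicates 24, 26 and 27. The groups did not overlap, but the log2 fold change of 0.70 ± 0.20 had an adjusted p of 0.0891 in edgeR (0.0286 in DESeq2). Bax was at 29.8 to 36.4 CPM in cuprizone and 28.8 to 32.6 CPM in control, with overlapping groups and a log2 fold change of 0.11 (95% interval -0.17 to 0.39, adjusted p = 0.630). The upper bound for Bax (0.39) lay below the lower bound for Cdkn1a (2.58). Bax shares 192 exonic bases with a protein-coding gene on the same strand.

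Phlda3, whose product competes with AKT for membrane lipids and so restrains survival signalling, was the one gene of the 10 that fell. It was at 93.6, 103 and 70.9 CPM in cuprizone replicates 30, 31 and 32, against 164, 136 and 146 CPM in control replicates 24, 26 and 27. All cuprizone libraries lay below all controls, and the log2 fold change was -0.73 ± 0.17 (adjusted p = 0.0427 in edgeR). The call was lost without cuprizone replicate 30 (adjusted p = 0.119) or control replicate 24, 26 or 27 (0.137, 0.100 and 0.139) and with upper-quartile scaling (0.0573). Eda2r, a receptor of the tumour necrosis factor family that binds the ligand encoded by Eda, was the scarcest of the 10 genes. Its raw counts were 122, 89 and 39 in cuprizone replicates 30, 31 and 32, or 5.50, 3.81 and 1.84 CPM, against 34, 40 and 30 in control replicates 24, 26 and 27, or 1.75 to 2.27 CPM. Replicates 30 and 31 lay above the controls and replicate 32 among them, so that the log2 fold change was 0.89 ± 0.40 with all libraries (adjusted p = 0.236) and 1.21 ± 0.26 without replicate 32 (adjusted p = 0.0391). The ligand gene Eda was at 8.39 ± 1.64 CPM in cuprizone and 10.95 ± 0.835 CPM in control (adjusted p = 0.246).

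The remaining targets serve metabolism and autophagy. Sesn1, a sestrin that lowers mTORC1 activity, was at 56.1, 58.4 and 52.9 CPM in cuprizone replicates 30, 31 and 32, against 48.9, 44.1 and 48.3 CPM in control replicates 24, 26 and 27. The groups did not overlap, yet the difference was small, at a log2 fold change of 0.24 ± 0.10 (adjusted p = 0.211 in edgeR). Trp53inp1, which promotes autophagy and p53-dependent death, was at 11.4 to 15.7 CPM in cuprizone and 11.8 to 12.8 CPM in control (log2 fold change 0.18, adjusted p = 0.530). Its relative Trp53inp2, which acts in autophagosome formation and is not on the target lists here, was at 226, 355 and 237 CPM in cuprizone and 709, 487 and 651 CPM in control. It fell by 1.18 on the log2 scale (adjusted p = 0.0293), a call lost without cuprizone replicate 30 or 32 or any control (adjusted p up to 0.111).

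**Figure D3:**
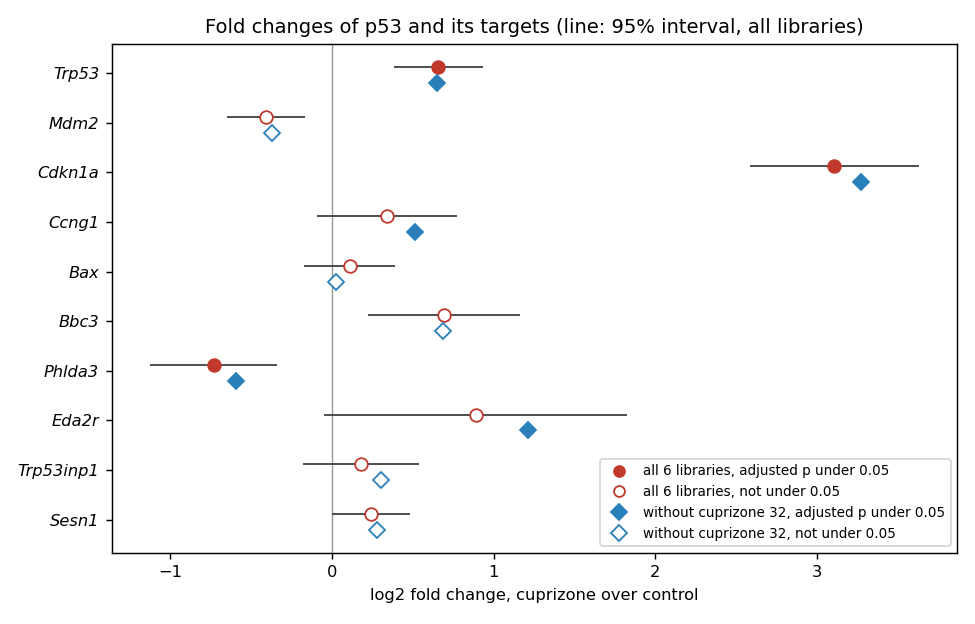
Log2 fold change of each of the 10 genes, cuprizone over control, with all 6 libraries (circles, with 95% intervals) and without cuprizone replicate 32 (diamonds). Filled symbols have an adjusted p under 0.05 in edgeR. Cdkn1a is at 3.11 and 3.27, and Ccng1 and Eda2r are filled only without replicate 32.

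Cuprizone replicate 32 was below both other cuprizone libraries for 7 of the 10 genes, where 41.0% of all genes tested showed this order. Relative to the mean log2 level of replicates 30 and 31, the median difference was -0.27 over the 10 genes and -0.0081 over all genes tested. The difference was largest for Eda2r (-1.31), Ccng1 (-0.59), Cdkn1a (-0.56) and Phlda3 (-0.47), while Trp53 and Bbc3 were within 0.06 of that mean and Bax was 0.24 above it. The same library had the lowest sum of astrocyte markers (15800 CPM, against 25424 and 30300 CPM in replicates 30 and 31) and of progenitor markers (572 CPM, against 1004 and 966 CPM). Its microglial, neuronal and vascular sums were the highest of all libraries. The part of these marker sums in the differences was not tested.

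Levels between genes were compared as CPM per kilobase of annotated exon. In cuprizone the order was Phlda3 (57.3 ± 10.7), Cdkn1a (31.6 ± 6.59), Bax (20.8 ± 2.12), Ccng1 (20.8 ± 4.54), Sesn1 (14.0 ± 0.686), Trp53 (8.35 ± 0.0930), Mdm2 (7.31 ± 0.369), Bbc3 (5.97 ± 1.07), Trp53inp1 (2.14 ± 0.347) and Eda2r (0.631 ± 0.311). The ranges of Bax and Ccng1 overlapped, as did those of Mdm2 and Bbc3, while the other neighbours were separate. In control, Phlda3 also led (95.1 ± 9.06) and Trp53inp1 and Eda2r were also last, but Cdkn1a (3.67 ± 0.732) stood at rank 8, with a range that overlapped that of Bbc3. Cdkn1a thus stood at rank 2 in cuprizone and at rank 8 in control.

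Among the other 6 inhibitors of cyclin-dependent kinases none rose and 1 fell, where 1.87% of all genes rose and 5.70% fell, so that no riser among 6 is what the background gives. Cdkn1c, which encodes p57, was at 11.9, 11.7 and 13.5 CPM in cuprizone and 28.9, 23.4 and 41.9 CPM in control, and it fell by 1.35 on the log2 scale (adjusted p = 0.0131, or 0.0616 without cuprizone replicate 30). It shares 625 exonic bases with an antisense gene. Cdkn1b, which encodes p27, was at 69.3 ± 12.4 CPM in cuprizone and 67.2 ± 3.36 CPM in control (log2 fold change 0.046, 95% interval -0.31 to 0.40). Cdkn2d was at 39.2 ± 7.15 CPM in cuprizone and 52.1 ± 1.47 CPM in control, with a log2 fold change of -0.41 (adjusted p = 0.146, or 0.0165 without cuprizone replicate 32). Its highest cuprizone level was in replicate 32. Cdkn2a, Cdkn2b and Cdkn2c did not pass either (adjusted p = 0.638, 0.329 and 0.947), and Cdkn2a, often followed as a senescence marker, was at 0.755 ± 0.208 CPM in cuprizone and 0.522 ± 0.365 CPM in control. Per kilobase, Cdkn1a made up 39.1%, 39.5% and 29.8% of the summed level of these 7 genes in cuprizone replicates 30, 31 and 32, against 5.65%, 5.23% and 3.73% in control replicates 24, 26 and 27. The share was higher in every cuprizone library than in any control.

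Genes whose transcription falls when p21 lets the DREAM complex act on cell cycle promoters were low in both groups. Of 20 such genes 19 were tested and none passed with edgeR or DESeq2, while 1 had an unadjusted p under 0.05 in edgeR and 0 in DESeq2. Of all genes 7.57% passed in edgeR, and 23.3% in edgeR and 24.6% in DESeq2 had an unadjusted p under 0.05. The median log2 fold change was -0.067, with 9 of 19 values positive. Ccnb2, Cenpa and Birc5 had the smallest adjusted p in the list, with log2 fold changes of 0.63, -0.55 and -0.56 (adjusted p = 0.203, 0.263 and 0.402). The summed level of 6 markers of dividing cells was 15.2 to 23.0 CPM in cuprizone and 12.98 to 25.4 CPM in control.

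A wider list of 45 further p53 targets held 3 genes that rose (Gdf15, Sesn2 and Btg2) and 1 that fell (Plk3), with 41 that did not pass and a median log2 fold change of 0.25. DESeq2 called 7 higher and 2 lower, beside 5.21% and 8.46% of all genes, and edgeR without cuprizone replicate 32 called 5 higher. By role, 1 of 11 targets in arrest rose and 1 fell, none of 12 targets in cell death passed with edgeR or DESeq2 (3 and 6 had an unadjusted p under 0.05), and 2 of 22 targets in repair and metabolism rose. Of all genes, 1.87% rose, 5.70% fell and 23.3% had an unadjusted p under 0.05 in edgeR (24.6% in DESeq2). These counts for cell death were thus near the background in edgeR, while the 6 of 12 in DESeq2 lay above it. Groups of the 12 death targets were separate for 4 upward and 0 downward, against 12.6% and 17.6% of all genes tested. Their median log2 fold change was 0.47. Gdf15, a secreted stress cytokine, had 144, 329 and 112 raw counts in cuprizone replicates 30, 31 and 32, against 4, 4 and 7 in control replicates 24, 26 and 27, a log2 fold change of 4.87 ± 0.52 (adjusted p = 0.00289). Sesn2, a sestrin that senses leucine, was at 49.7, 52.9 and 35.3 CPM in cuprizone and 17.0, 19.5 and 18.3 CPM in control (1.33 ± 0.17, adjusted p = 0.00542). Btg2, an antiproliferative protein also induced as an immediate early gene, was at 22.3, 20.7 and 32.4 CPM in cuprizone and 12.1, 13.03 and 10.9 CPM in control. Its log2 fold change of 1.06 had an adjusted p of 0.0199, and of 0.0718, 0.0686 and 0.0945 without control replicate 24, 26 or 27. Plk3, a polo-like kinase, was at 7.48, 10.1 and 12.8 CPM in cuprizone and 34.8, 35.0 and 32.4 CPM in control, a log2 fold change of -1.75 ± 0.20 (adjusted p = 0.00335), and it shares 84 exonic bases with a gene on the opposite strand.

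Several of these targets did not pass although their groups were separate. Among all 45 further targets, passed or not, groups were separate for 16 upward and 3 downward, against 12.6% and 17.6% of all genes tested. Gadd45a, which acts in arrest and repair, had a log2 fold change of 0.73 (adjusted p = 0.103, 0.0339 in DESeq2 and 0.0341 without cuprizone replicate 32). It shares 337 exonic bases with a transcript on the opposite strand. Among the death targets, the nuclease Aen, the apoptosome scaffold Apaf1 and the death receptor Fas had 0.48, 0.46 and 0.95 (adjusted p = 0.110, 0.112 and 0.134), and Aen passed without cuprizone replicate 32 (adjusted p = 0.0185). For both Gadd45a and Aen, replicate 32 was the lowest cuprizone library. Fdxr, a ferredoxin reductase of mitochondria, had -0.60 (adjusted p = 0.0638, 0.0168 in DESeq2).

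Some p53 targets are also known targets of ATF4, the factor of the integrated stress response, or are immediate early genes, and 12 such genes were listed (Cdkn1a, Btg2, Gadd45a, Plk2, Plk3, Sesn2, Gdf15, Ddit4, Bbc3, Pmaip1, Tnfrsf10b and Trp53inp1). Of these 12, 4 rose and 1 fell, beside 1.87% and 5.70% of all genes tested, and their median log2 fold change was 0.91. DESeq2 called 7 of the 12 higher and 1 lower, beside 5.21% and 8.46% of all genes. The unadjusted p was under 0.05 for 9 of the 12 in edgeR and 10 in DESeq2, against 23.3% and 24.6% of all genes. Their groups were separate for 7 upward and 2 downward, against 12.6% and 17.6% of all genes tested. The other 42 targets, Mdm2, Ccng1, Bax, Phlda3, Sesn1 and Eda2r included, held no gene that rose and 1 that fell (Phlda3), counts near what those shares give for a list of this length, with a median of 0.17. The unadjusted edgeR p was under 0.05 for 11 of the 42, close to the 23.3% of all genes. The groups did not overlap for 12 of the 42 upward and for 3 downward, against 12.6% and 17.6% of all genes tested. Of the 42 log2 fold changes 30 were positive, where the median of all genes tested was 0.023. In DESeq2 2 of the 42 were higher and 3 lower, beside 5.21% and 8.46% of all genes. The unadjusted DESeq2 p was under 0.05 for 14 of the 42, against 24.6% of all genes. The lists were chosen with earlier results of these data known, and the difference between them was not tested.

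Within the sestrin family, Sesn2 stood at 14.3, 15.2 and 10.2 CPM per kilobase in cuprizone, against 4.89, 5.61 and 5.28 in control. Per kilobase, its share of the 3 sestrins was 39.7% to 45.5% in cuprizone and 24.3% to 29.4% in control, and the groups did not overlap. The size of this share depends on the annotated exonic length, which was 3475 bases for Sesn2 and 15269 for Sesn3. Sesn3 was at 49.3 ± 14.9 CPM in cuprizone and 42.0 ± 4.72 CPM in control (95% interval of the log2 fold change -0.32 to 0.78), and Ccng2, which encodes the related cyclin G2, was at 19.8 ± 3.61 CPM in cuprizone and 23.1 ± 0.813 CPM in control (adjusted p = 0.414).

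Of 17 genes that regulate p53 1 passed, a share near the 7.57% of all genes. It was Hipk2, a kinase that phosphorylates p53 in damaged cells. Hipk2 was at 145, 182 and 88.7 CPM in cuprizone replicates 30, 31 and 32, against 414, 345 and 530 CPM in control replicates 24, 26 and 27, and it fell by 1.63 on the log2 scale (adjusted p = 0.0182). That call was lost without cuprizone replicate 30 or control replicate 24 or 27 (adjusted p = 0.0739, 0.0586 and 0.0698). The phosphatase Ppm1d and the ligase Rchy1, both p53 targets that restrain p53, had log2 fold changes of -0.29 and -0.22 (adjusted p = 0.209 and 0.273). Both were listed only as regulators, so the counts of p53 targets above leave them out. Every cuprizone library lay below every control for both. The median of the 17 regulators was 0.022.

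**Figure D4:**
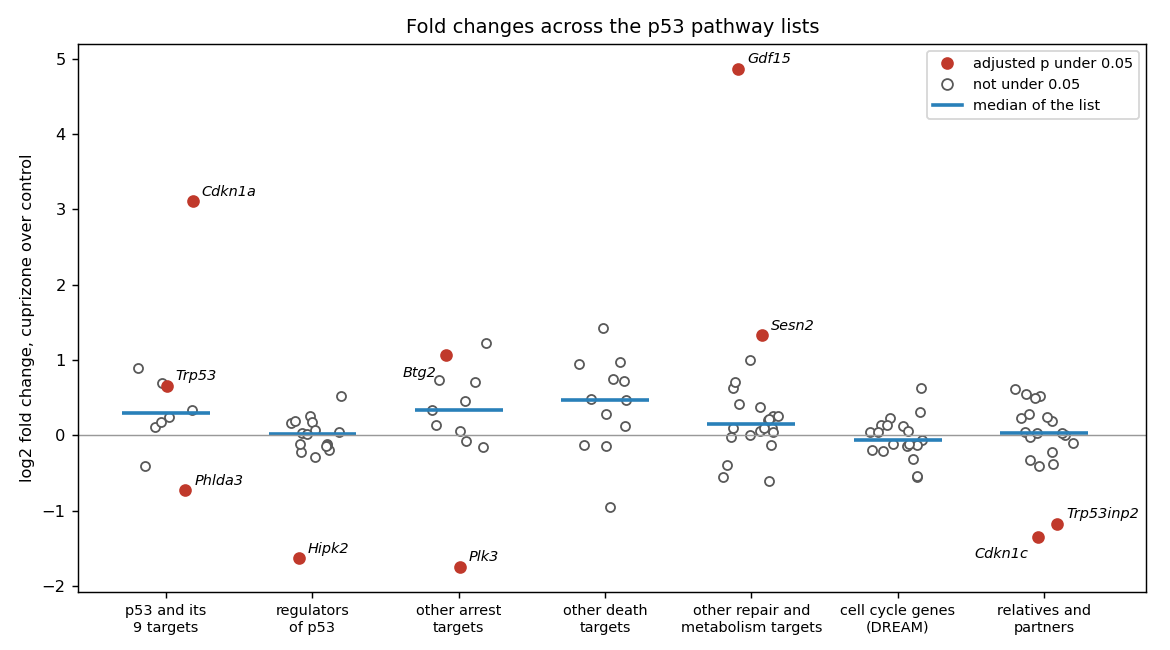
Log2 fold change, cuprizone over control, of every tested gene of the 10 (left) and of 6 further lists (regulators, other targets by role, cell cycle genes, relatives), with filled points at an adjusted p under 0.05 in edgeR and a line at each list's median. Gdf15 (4.87) and Cdkn1a (3.11) lie far above all other genes shown, and the medians of the lists shown lie between -0.067 and 0.47.

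The genes most like Cdkn1a in pattern were found among 11232 protein-coding genes with a mean of at least 5 CPM, by the Euclidean distance of log2 CPM centred on the control mean over the 6 libraries. The nearest 5 were Nupr1 (distance 0.512), Atf5 (0.583), Il4i1 (0.931), Moxd1 (0.943) and Cyb5r2 (1.03). Nupr1 was at 129, 149 and 94.9 CPM in cuprizone replicates 30, 31 and 32, against 21.3, 18.8 and 11.6 CPM in control replicates 24, 26 and 27. Il4i1 and Atf5 share 82 exonic bases on opposite strands, so their counts may not be separate. Il4i1 also shares 3423 exonic bases with Tbc1d17 on the opposite strand and 97 with Nup62 on the same strand. Cyb5r2 shares 129 with Ppfibp2 on the opposite strand. The strand option of the counting is not known, so the counts of these genes may hold reads of their neighbours.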

How the data were processed

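Ribosome-bound RNA of 6 libraries was analysed, 3 cuprizone and 3 control. The authors deposited raw counts per Ensembl gene. Per the labels' protocols, RNA was co-immunoprecipitated with anti-HA from frozen corpus callosum and libraries were made with a Kapa kit. The submitters' processing notes name bcl2fastq 2.17 and mm10. These sources state neither the aligner nor the counting program and its strand option. Columns were matched to samples by title.

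Gene names, positions and exonic lengths (union of all annotated exons) came from GENCODE M21 on GRCm38, which named 37607 of 39017 identifiers. Promoter windows came from RefSeq (GRCm38.p6). Replicates of a group differed beyond sampling noise (chi-square per degree of freedom 24.4 to 101), so each counted once. In R 4.3.3 with edgeR 4.0.16, genes were kept by filterByExpr (minimum count 10, minimum total 15), scaled by TMM (factors 0.915 to 1.11) and tested by glmQLFit (robust) and glmQLFTest (2-sided). P-values were adjusted by Benjamini-Hochberg over 16569 genes, with a threshold of 0.05. SE is the log2 fold change over the square root of F. At 18549360 to 22381307 counts per library, counting error matters for genes at a few CPM. With 3 against 3 libraries no permutation p can fall under 0.1, so none was computed. The procedure was checked on simulated counts. The alternatives tried were scaling by RLE or by upper quartile, TMM without myelin markers and the 20 most abundant genes, no filter, CPM over 1 in at least 3 libraries, DESeq2 1.42.0, limma-voom (limma 3.58.1) and leaving out each library.

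The 10 genes and all lists were chosen with earlier results of these data known. Named genes are the 10, the 3 genes of smallest adjusted p in each list, a fixed set of relatives (the other inhibitors of cyclin-dependent kinases, Sesn2, Sesn3, Ccng2, Trp53inp2, Eda, Mdm4, Trp63 and Trp73) and the 5 genes nearest to Cdkn1a.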

Additional observations from a re-analysis of the deposited data

How the results depend on the processing

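Cdkn1a passed in all 13 alternatives, as did Gdf15, Sesn2 and Plk3. The number of the 10 genes that rose was 1 to 4 with a library left out, and the number that fell was 0 to 1. The number that fell was 0 with upper-quartile scaling and 2 with DESeq2 (Phlda3 and Mdm2). The count of all genes that rose was 310, and 862 with DESeq2, and 65 to 464 with a library left out, while 945 fell, and 474 to 963 with a library left out. Of the 45 further targets 7 rose and 2 fell with DESeq2, and 2 to 5 rose and 1 fell with a library left out. Genes without a call that changed sign were Cdkn1b (-0.036 without cuprizone replicate 30, -0.028 without 31, and -0.036 to 0.19 with a library left out), Cdkn2c (0.026 with upper-quartile scaling, and -0.13 to 0.11 with a library left out), Mdm4 (0.0057 without cuprizone replicate 32, 0.042 without control replicate 26, -0.23 to 0.042), Trp63 (0.0016 and 0.071 without control replicates 24 and 27, -0.44 to 0.071) and Trp73 (-0.023 with limma-voom, -0.62 without cuprizone replicate 32, -0.0028 and -0.32 without control replicates 24 and 26, -0.62 to 0.81). The cause was not tested. Scaling moved the median of all genes by under 0.1 (0.023 with TMM, 0.079 with upper-quartile). With CPM of raw totals the log2 ratios of the summed markers moved by less than the spread between replicates, but turned sign for progenitor markers (0.12, against -0.10 with TMM) and for dividing cells (0.12, against -0.12). No paired analysis was possible because the groups share no replicate number. With 3 libraries per group, genes at a few CPM such as Eda2r have wide intervals (-0.05 to 1.82).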
